A study of Rattus norvegicus with 6 samples.

Results

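Mitochondrial carriers and uncoupling proteins were followed on 6 Clariom S Rat arrays of whole rat heart, single-channel Affymetrix arrays that give 1 value per transcript cluster. Every gene whose symbol begins with Slc25a was taken, together with Ucp1, Ucp2 and Ucp3, which gave 41 of the 15037 named genes in the table, each with a single row. All hearts came from male Sprague-Dawley rats described as 10 weeks old, and 2 arrays were labelled TAC-R (hearts freed from the constriction), 2 TAC (hearts under transverse aortic constriction, made by tying a silk thread around the aorta and a blunt needle) and 2 normal. The labels mention control rats that had the operation without the ligature, but not whether the normal hearts came from them, and they give neither the time under constriction nor the time after release. The sources used here do not say that the 2 arrays of a group stand for separate animals, so every p-value reflects array-to-array spread alone, and that spread may be technical.

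The extraction label names cultured fibroblasts, whereas the other labels name heart. All 9 measured cardiomyocyte markers lay above background on all 6 arrays, and Actc1, Mb, Pln and Myl3 stood at the ceiling of the scale, 19.93 log2 units. Nppb, the gene of the B-type natriuretic peptide, which loaded heart muscle is known to raise, ran against the labels. It read 16.91 and 17.23 log2 units on the TAC-R arrays, 13.57 and 13.88 on the TAC arrays, and 16.05 and 15.72 on the normal arrays (TAC minus normal -2.16 ± 0.24, TAC-R minus TAC 3.35 ± 0.24, limma adjusted p = 0.0118 and 0.00204). Myh7, the beta-myosin heavy chain, which rises in loaded rodent hearts, read 19.93 and 19.91 on the TAC-R arrays, 17.87 and 17.76 on the TAC arrays, and 19.91 and 19.93 on the normal arrays (TAC minus normal -2.10 ± 0.20, limma adjusted p = 0.00627), with all but the TAC arrays at or just under the ceiling. Nppa, counted below among the atrial markers, read 13.69 and 11.26 log2 units on the TAC-R arrays and 8.60 and 8.92 on the TAC arrays. On the normal arrays it read 9.97 and 10.32 (TAC minus normal -1.38 ± 0.625, TAC-R minus TAC 3.71 ± 0.625, limma adjusted p = 0.492 and 0.0527). Whether the labels of some arrays were exchanged was not tested, and every direction below is one between arrays that carry these labels. In whole hearts, fewer cells of a type and less RNA per cell cannot be told apart.

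Carriers of the SLC25 family are small proteins of the mitochondrial inner membrane, with a few members in other membranes, that move nucleotides, phosphate, organic acids, amino acids, acylcarnitines and cofactors between cytosol and matrix. The uncoupling proteins belong to the same family: UCP1 lets protons back into the matrix in brown fat and so makes heat, while UCP2 and UCP3 are linked to fatty acid use and to the handling of reactive oxygen. Heart muscle depends on the family for exporting ATP, taking up phosphate and fatty acids, and passing reducing equivalents through the malate-aspartate shuttle.

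Of the 41 genes, Ucp2 alone passed the test in any comparison, with a higher signal on TAC than on normal arrays. A gene passed at a Benjamini-Hochberg adjusted p under 0.05, which 0.254% of all tested rows did in TAC against normal, 0.431% in TAC-R against TAC and 0.0906% in TAC-R against normal. Ucp2 read 17.31 and 16.79 log2 units on the TAC-R arrays, 18.22 and 18.14 on the TAC arrays, and 16.15 and 16.18 on the normal arrays. The 3 groups did not overlap, with TAC highest and normal lowest. Ucp2 was 4.04-fold higher on the TAC than on the normal arrays, a difference of 2.02 ± 0.24 log2 units (SE of the limma model, n = 2 arrays a group, 95% confidence interval 1.47 to 2.56, limma adjusted p = 0.0143). On the TAC-R arrays it differed from TAC by -1.13 ± 0.24 and from normal by 0.89 ± 0.24, and neither difference passed (limma adjusted p = 0.119 and 0.288). The difference between TAC and normal stayed between 1.98 and 2.05 when any of these 4 arrays was left out. The call needed all 4, since it was lost each time 1 array was left in a group. Both further differences passed when the moderation followed signal intensity (adjusted p = 0.000928 and 0.0106).

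Ucp3, the uncoupling protein of muscle, read 7.09 and 7.22 log2 units on the TAC-R arrays, 8.39 and 8.35 on the TAC arrays, and 7.47 and 6.94 on the normal arrays. Both TAC arrays lay above all others. Background was read from the 95th percentile of the negative control rows of each array, which lay between 8.09 and 8.55 log2 units, and only the TAC signals of Ucp3 were above it. The TAC mean was itself below the normal arrays' percentiles, so the size of the difference from normal, 1.17 ± 0.24, is not measured (limma adjusted p = 0.142). Against TAC-R the signal gives only a bound: by the group means, Ucp3 was at least 1.18-fold lower on the TAC-R arrays. The difference of -1.22 ± 0.24 did not pass (limma adjusted p = 0.0958). It passed when rows below the median of row means were left out or when the moderation followed intensity (limma adjusted p = 0.0432 and 0.0337). The rows kept still included signals below background, such as those of Ucp3 on the TAC-R and normal arrays.

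In the RefSeq annotation of the rat genome (GRCr8), Ucp3 and Ucp2 follow each other on chromosome 1 with 0 annotated genes between them, on the same strand. Their promoter windows, from 250 bases before to 50 bases after the annotated start, are shown because Ucp2 was the one gene called and Ucp3 is its neighbour, with both TAC arrays above all others. Capitals mark AGGTCA on either strand, the half-site bound by nuclear receptors, to which the fatty acid sensors of the PPAR family belong. The windows are chr1:164251123-164251422 for Ucp2 and chr1:164227660-164227959 for Ucp3, both on the plus strand.
Ucp2: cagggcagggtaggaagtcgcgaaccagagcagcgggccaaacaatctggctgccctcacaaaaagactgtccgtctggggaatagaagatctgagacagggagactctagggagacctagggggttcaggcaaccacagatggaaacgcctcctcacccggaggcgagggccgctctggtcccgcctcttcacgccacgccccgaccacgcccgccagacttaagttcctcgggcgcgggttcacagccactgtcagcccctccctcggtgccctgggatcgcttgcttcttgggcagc
Ucp3: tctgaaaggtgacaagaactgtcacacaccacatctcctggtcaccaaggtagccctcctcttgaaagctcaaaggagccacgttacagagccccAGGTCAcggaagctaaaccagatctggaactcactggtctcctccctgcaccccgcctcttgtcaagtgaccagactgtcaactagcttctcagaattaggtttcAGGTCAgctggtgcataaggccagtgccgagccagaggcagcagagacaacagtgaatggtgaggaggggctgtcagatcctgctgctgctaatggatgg
The half-site occurred 2 times in the Ucp3 window and 0 times in the Ucp2 window. Among all 33469 rat promoter windows of this length, 16.2% held it at least once, so a match of this kind is common, and the absence of these letters says nothing about binding.

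The mean signals of macrophage and erythroid markers stood in the same order of groups as Ucp2, with TAC highest and normal lowest. The fibroblast mean was likewise highest on TAC but lowest on TAC-R. The mean log2 signal of 9 macrophage markers was 6.73 to 6.81 on the TAC-R arrays, 7.16 to 7.17 on the TAC arrays and 6.39 to 6.52 on the normal arrays. Of these, 8 had both TAC arrays above both normal arrays, as had 21.9% of all rows, and 0 passed the test, while 6 to 8 of the 9 lay below background on each array. Cd68, a lysosomal protein of macrophages, was below background throughout. It read 6.97 and 7.12 on the TAC arrays, against 5.82 and 5.23 on the normal arrays (limma adjusted p = 0.0709). Not all 9 followed the order: Adgre1 and Cd163 averaged highest on TAC-R, at 5.41 and 7.23, against 5.03 and 7.02 on TAC. Lyz2, above background on all 6 arrays, averaged 10.76 on the TAC-R and 10.97 on the normal arrays. The mean of 11 erythroid markers was 9.24 to 9.36 on the TAC-R arrays, 10.19 to 10.43 on the TAC arrays and 8.60 to 8.65 on the normal arrays. Of the 11, 5 passed as higher on TAC than on normal arrays, namely Alas2, Slc4a1, Hbb, Hbb-b1 and Hbb-bs. The beta-globin rows Hbb-b1 and Hbb-bs are near copies and uncertain as separate genes. On each array 5 to 7 of the 11 lay below background, Epb42, Ahsp, Rhag, Klf1 and Hemgn on all 6. The mean of 8 fibroblast markers was 9.84 to 10.23 on the TAC-R arrays, 11.25 to 11.38 on the TAC arrays and 10.45 to 10.52 on the normal arrays, and 0 of 8 passed between TAC and normal, while 2 were lower on TAC-R than on TAC arrays. Tcf21 and Postn were below background on all 6 arrays. The part of these cells in the Ucp2 signal was not tested.

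The other relatives of the uncoupling proteins did not pass. Ucp1 was below background on every array, between 2.26 and 3.18 log2 units, as were the brain-enriched carriers Slc25a14 and Slc25a27. Of 8 brown fat markers, 5 were likewise below background on each array, among them Elovl3, Dio2 and Zic1, while Cidea, Cox8b and Ppara were above it on all 6. Slc25a30, a close relative first described in kidney, read 10.97 and 10.93 on the TAC-R arrays, 10.60 and 10.81 on the TAC arrays, and 10.32 and 9.88 on the normal arrays. The groups did not overlap, with TAC-R highest and normal lowest. Its difference from normal was 0.85 ± 0.23 on the TAC-R arrays and 0.61 ± 0.23 on the TAC arrays (limma adjusted p = 0.3 and 0.437).

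**Figure D1:**
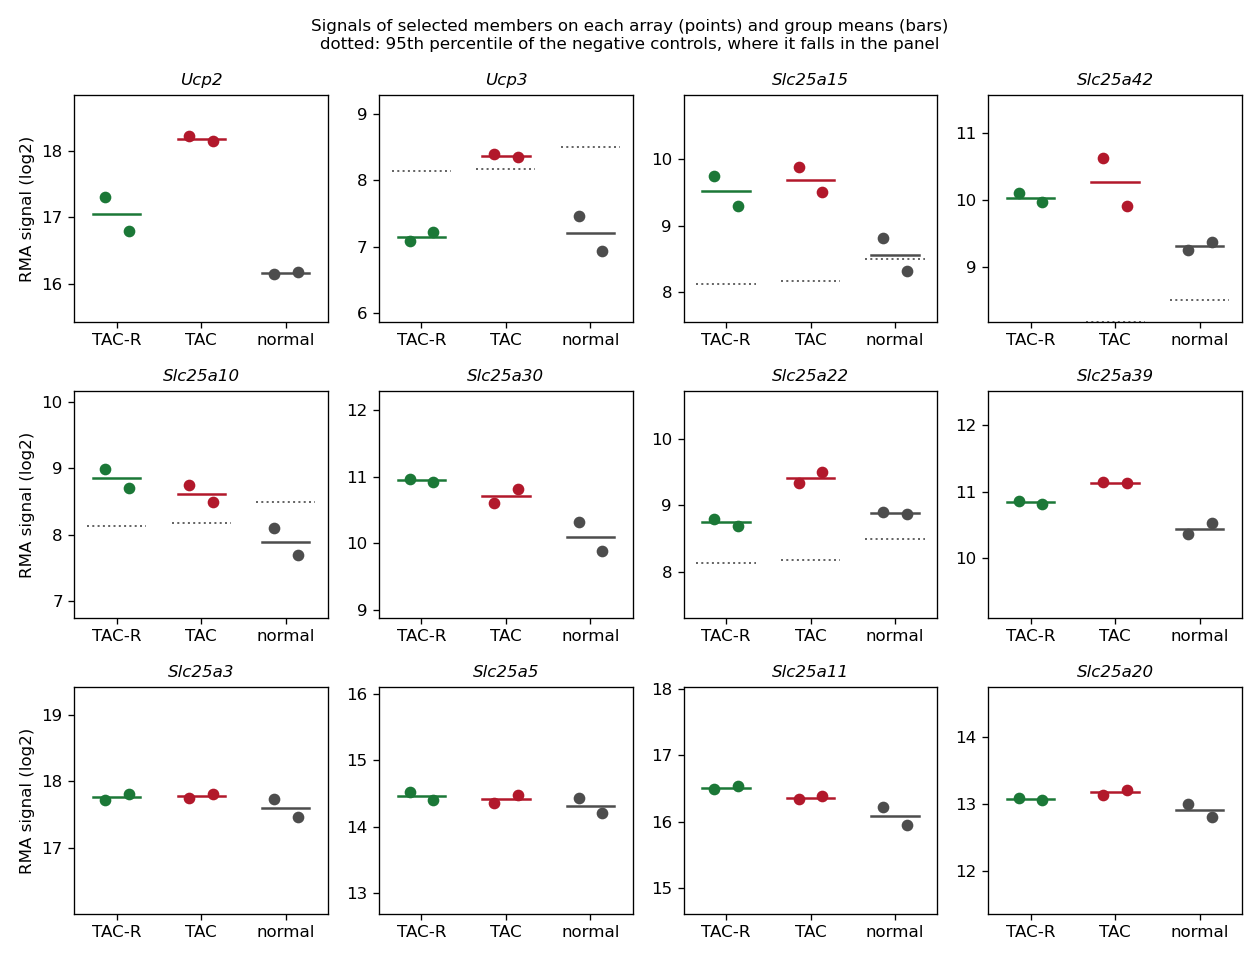
RMA signals (log2, vertical axis) of 12 members on each array, with TAC-R, TAC and normal from left to right in every panel, bars for group means and dotted lines for the mean background percentile of each group. Every panel spans the same number of log2 units, so that the spread of Ucp2, from 16.15 to 18.22, can be set against the narrow spread of Slc25a3, from 17.47 to 17.80.

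Carriers of ATP and phosphate, the bulk traffic of oxidative phosphorylation, showed small differences that did not pass. Slc25a4, the adenine nucleotide translocase of heart and muscle, was at the ceiling on all 6 arrays, so no difference could be measured for it. Slc25a3, the phosphate carrier, read 17.73 and 17.80 on the TAC-R arrays, 17.75 and 17.80 on the TAC arrays, and 17.73 and 17.47 on the normal arrays. Slc25a5, the translocase found in most tissues, read 14.52 and 14.39 on the TAC-R arrays, 14.35 and 14.47 on the TAC arrays, and 14.43 and 14.21 on the normal arrays. The groups overlapped or touched closely for both genes, and the 95% confidence intervals of TAC minus normal were -0.31 to 0.66 for Slc25a3 and -0.39 to 0.58 for Slc25a5 (limma adjusted p = 0.815 and 0.912). RefSeq lists rat pseudogenes of Slc25a5 and of Slc25a39, so these rows are uncertain as separate genes.

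The carriers that trade ATP-Mg for phosphate in response to calcium were mostly dim. Slc25a25 was below background on all arrays, at 5.63 and 5.96 on the TAC-R arrays, 5.42 and 5.12 on the TAC arrays, and 6.44 and 5.97 on the normal arrays. The TAC arrays were below the normal arrays (difference -0.94 ± 0.25, limma adjusted p = 0.286), with a size that is not measured at such signals. Slc25a24, a carrier of the same kind, and Slc25a41, a short relative, were also below background throughout. Slc25a23, the only carrier of this kind above background, overlapped between all groups, from 11.60 to 12.20. Slc25a33, which carries pyrimidine nucleotides, was below background and read 6.92 and 6.78 on the TAC-R arrays, 6.35 and 6.50 on the TAC arrays, and 6.32 and 6.10 on the normal arrays. Both TAC-R arrays were above all others, without passing (difference from normal 0.64 ± 0.21, limma adjusted p = 0.361). Slc25a17, the carrier of the peroxisome, was below background too.

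Among carriers of organic acids and glutamate, 0 of 6 measured genes passed in any comparison. Slc25a11, the oxoglutarate carrier of the malate-aspartate shuttle, read 16.49 and 16.53 on the TAC-R arrays, 16.34 and 16.38 on the TAC arrays, and 16.22 and 15.95 on the normal arrays. The groups did not overlap, with TAC-R highest, and the differences were small (TAC-R minus normal 0.43 ± 0.21, TAC minus normal 0.27 ± 0.21, limma adjusted p = 0.522 and 0.691). Slc25a10, the dicarboxylate carrier, read 8.99 and 8.71 on the TAC-R arrays, 8.74 and 8.49 on the TAC arrays, and 8.10 and 7.69 on the normal arrays. Only the normal arrays lay below background, which leaves bounds for Slc25a10. By the group means it was at least 1.28-fold higher on TAC-R and at least 1.09-fold higher on TAC arrays. The TAC reading of 8.49 was itself below the percentile of normal replicate 2, 8.55. Neither difference passed (limma adjusted p = 0.266 and 0.383).

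Slc25a22, a mitochondrial glutamate carrier, read 8.80 and 8.69 on the TAC-R arrays, 9.33 and 9.50 on the TAC arrays, and 8.89 and 8.87 on the normal arrays. Both TAC arrays were above all others, like those of Ucp2 and Ucp3. The differences were -0.67 ± 0.21 for TAC-R minus TAC and 0.54 ± 0.21 for TAC minus normal, and neither passed (limma adjusted p = 0.27 and 0.439). Slc25a1, the citrate carrier that feeds fat synthesis, was below background at 4.69 to 5.36, as were Slc25a18, the other glutamate carrier, and Slc25a21, which carries oxodicarboxylates. The other carriers of the shuttle, the aspartate-glutamate carriers Slc25a12 and Slc25a13, had no named row and were not analysed here.

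Carriers of acylcarnitine and amino acids all had positive differences between TAC and normal arrays, and 0 of 6 passed. Of all rows 50.3% had a positive difference, and 60.8% of rows with a mean above the background percentile of 8.18. The median was 0.33 log2 units over 6 genes. Slc25a2, Slc25a29 and Slc25a38 were below background, so this median is not a measured size. Slc25a15, the ornithine carrier, read 9.74 and 9.30 on the TAC-R arrays, 9.88 and 9.51 on the TAC arrays, and 8.81 and 8.32 on the normal arrays. The normal arrays were below the other 4, which overlapped each other. The difference from normal was 0.96 ± 0.27 on TAC-R and 1.13 ± 0.27 on TAC arrays, and 1 of the 2 normal arrays was below background (limma adjusted p = 0.305 and 0.222). Slc25a2, the other ornithine carrier, was below background on all arrays, at 3.86 and 4.71 on the TAC-R arrays, 5.43 and 5.54 on the TAC arrays, and 4.60 and 4.54 on the normal arrays. Both TAC arrays were above the others, without passing and with no measured size.

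Slc25a20, which carries acylcarnitines into the matrix for fatty acid oxidation, read 13.09 and 13.06 on the TAC-R arrays, 13.14 and 13.22 on the TAC arrays, and 13.00 and 12.81 on the normal arrays. The groups did not overlap, yet all values lay close together, and the 95% confidence interval of TAC minus normal was -0.20 to 0.75 (limma adjusted p = 0.681). Slc25a29, a carrier of basic amino acids, was below background and highest on the TAC-R arrays, at 7.79 and 7.95, against 7.40 and 7.69 on the TAC arrays and 7.07 and 7.24 on the normal arrays (TAC-R minus normal 0.72 ± 0.22, limma adjusted p = 0.331). Slc25a38, which supplies glycine for haem synthesis, was below background as well. Slc25a44, the carrier of branched-chain amino acids, ranged from 9.65 to 10.19, and its normal arrays spanned both TAC arrays.

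Carriers of cofactors, iron and glutathione gave 0 of 7 past the threshold in each comparison. Slc25a42, which brings coenzyme A into the matrix, read 10.10 and 9.97 on the TAC-R arrays, 10.63 and 9.91 on the TAC arrays, and 9.24 and 9.38 on the normal arrays. The normal arrays were below all others, and the differences from normal were 0.72 ± 0.27 on TAC-R and 0.96 ± 0.27 on TAC arrays (limma adjusted p = 0.404 and 0.301). Slc25a39, which imports glutathione, read 10.86 and 10.82 on the TAC-R arrays, 11.14 and 11.13 on the TAC arrays, and 10.37 and 10.53 on the normal arrays. The groups did not overlap and stood in the same order as those of Ucp2 (TAC minus normal 0.69 ± 0.21, limma adjusted p = 0.327).

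Slc25a37, the mitoferrin that supplies iron for haem in red cell precursors, was below background on all arrays, at 5.73 and 6.25 on the TAC-R arrays, 6.26 and 6.02 on the TAC arrays, and 6.22 and 5.46 on the normal arrays. Its groups overlapped, although Alas2, which starts haem synthesis in those cells, was higher on the TAC than on the normal arrays (limma adjusted p = 0.00341). Slc25a28, the mitoferrin of other tissues, was below background and overlapped as well, from 6.98 to 7.74. Slc25a51, which imports NAD, ranged from 10.55 to 11.19 with its extremes both on TAC arrays. Slc25a32, a carrier of flavin and folate, ranged from 9.33 to 9.88, and Slc25a16, whose row was above background on 5 arrays, from 8.02 to 8.76.

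Of the carriers with other or unsettled substrates, Slc25a46, an outer membrane protein that takes part in mitochondrial fusion and fission, read 12.00 and 12.21 on the TAC-R arrays, 11.87 and 11.76 on the TAC arrays, and 11.88 and 11.69 on the normal arrays. Both TAC-R arrays were above all others, and no difference passed. Slc25a34, an orphan carrier of muscle and heart, read 9.83 and 10.13 on the TAC-R arrays, 9.88 and 10.10 on the TAC arrays, and 9.94 and 9.65 on the normal arrays, with all groups overlapping. Slc25a35, Slc25a45, Slc25a47, Slc25a53 and Slc25a54 were below background on all arrays.

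**Figure D2:**
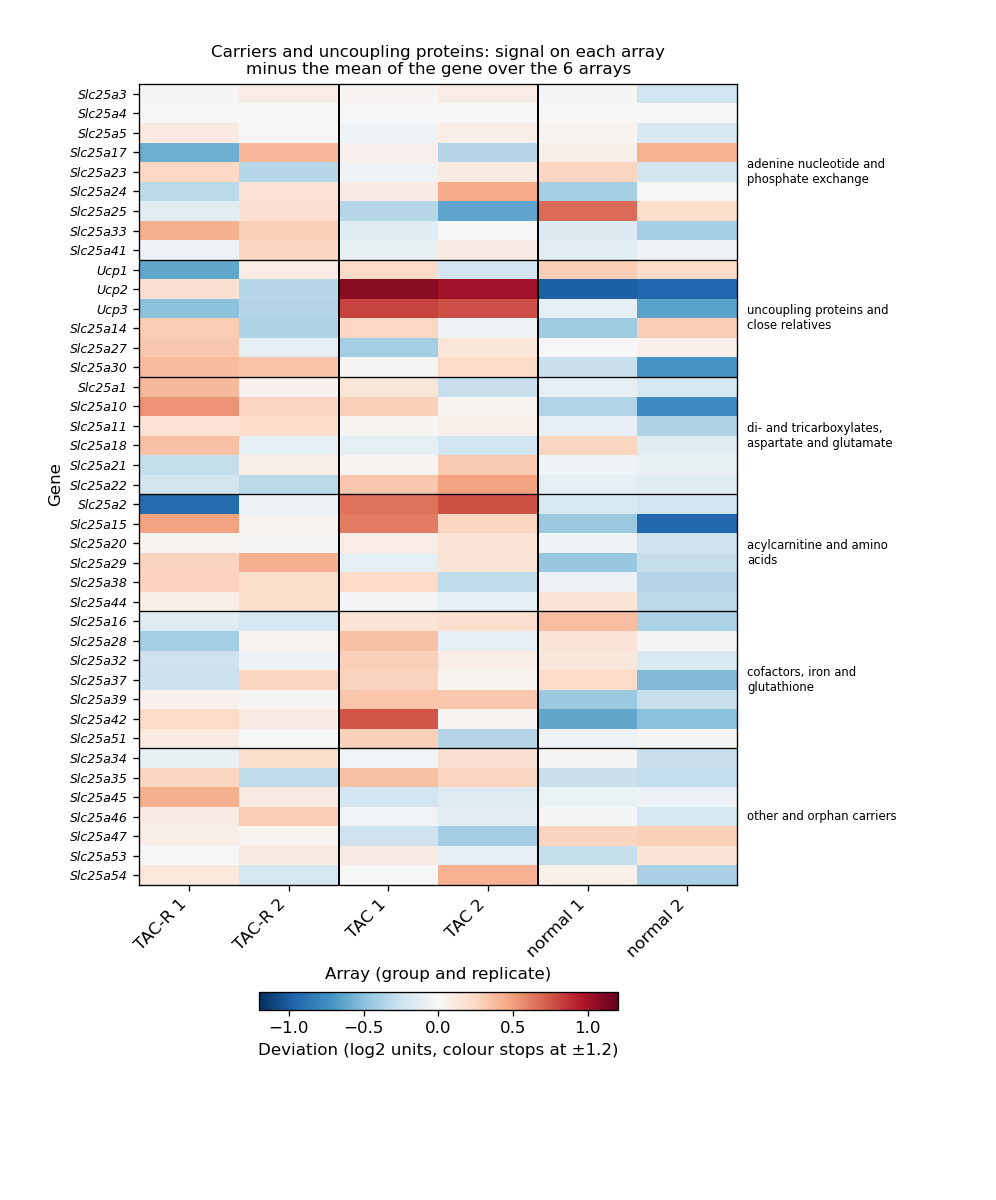
Deviation of each array (columns, TAC-R, TAC and normal from left to right) from the mean of the gene over the 6 arrays, in log2 units, for the 41 genes (rows) grouped by what they carry, with red above and blue below the mean. Ucp2 and Ucp3 stand out in red on both TAC arrays, and Slc25a4 is blank because it was at the ceiling.

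Across the family, more genes lay higher than lower on the TAC arrays. Of the 41 genes, 1 was called in TAC against normal, Ucp2 as higher, where 0.254% of all 23188 tested rows were called in either direction and 0.19% as higher. At an unadjusted p under 0.05 stood 10 members that were higher and 2 that were lower, against 5.43% and 4.89% of all rows. Both TAC arrays were above both normal arrays for 17 genes and below them for 5, against 21.9% and 21.3% of all rows. The 5, which include both members lower at the unadjusted p, were below background in both groups, as were some of the 17. The median difference was 0.18 log2 units over the members and 0.0017 over all rows. Bright rows of other genes lay higher more often too: among rows with a mean above the background percentile of 8.18, the median was 0.21 over 19 members and 0.077 over 6207 rows, and both TAC arrays were above both normal arrays for 10 members and 32.2% of rows. Both TAC arrays were below both normal arrays for 0 of these members and 17.6% of these rows. The members' median depended on the normal arrays, at 0.31 without normal replicate 1 and 0.055 without normal replicate 2.

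Between TAC-R and TAC, limma called 0 of the 41 genes, against 0.431% of all rows. At an unadjusted p under 0.05 stood 4 members, Ucp2, Ucp3, Slc25a2 and Slc25a22, all lower on the TAC-R arrays, where 6.2% of all rows were lower by that rule. Both TAC-R arrays were above both TAC arrays for 9 members and below them for 8, close to the 20.1% and 20.4% of all rows. The median difference was -0.013 over the members and 0.0045 over all rows. Some atrial transcripts were higher on the TAC-R arrays. Myl7, the atrial light chain, read 14.30 and 12.54 on the TAC-R arrays, against 7.48 and 7.51 on the TAC arrays. The mean of 6 atrial markers was 9.42 to 10.88 on the TAC-R arrays, 7.75 to 7.82 on the TAC arrays and 8.04 to 8.20 on the normal arrays. Of the 6, Nppa averaged 12.47 on the TAC-R and 8.76 on the TAC arrays, and Gja5 10.70 and 10.67. Kcnj3 was lower on TAC-R, at 11.91 against 12.14 on TAC. In TAC-R against TAC only Myl7 passed (limma adjusted p = 0.00315). Sln was below background on all arrays, and Myl4 was above it on 1. Other markers were lower on TAC-R than on TAC arrays, as were Ucp2 and Ucp3. The collagen genes Col1a2 and Col3a1 passed among 8 fibroblast markers (limma adjusted p = 0.0469 and 0.0269), all 8 with both TAC-R arrays below both TAC arrays. The beta-globin rows Hbb-b1 and Hbb-bs, which are near copies and uncertain as separate genes, and the red cell anion exchanger Slc4a1 passed among 11 erythroid markers (limma adjusted p = 0.00416, 0.0151 and 0.014). All 7 endothelial markers had both TAC-R arrays below both TAC arrays, 0 of them past the threshold, and their mean was 10.08 to 10.51 on the TAC-R and 10.83 to 10.98 on the TAC arrays. Tie1 was below background on all 6 arrays, and Vwf was above it on 2. The part of these cells in the carrier signals was not tested.

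Between TAC-R and normal, limma called 0 of the 41 genes as well, against 0.0906% of all rows. At an unadjusted p under 0.05 stood 7 members, all higher on the TAC-R arrays, namely Slc25a10, Ucp2, Slc25a30, Slc25a15, Slc25a29, Slc25a33 and Slc25a42, where 5.36% of all rows were higher by that rule. Both TAC-R arrays were above both normal arrays for 15 members and below them for 4, against 20.6% and 20.3% of all rows. The median difference was 0.14 over the members and 0.0040 over all rows, and the members' median was 0.26 without normal replicate 1 and 0.072 without normal replicate 2. Among bright rows the median was 0.18 over 19 members and 0.086 over 6207 rows, and both TAC-R arrays were above both normal arrays for 9 members and 29.8% of rows. Both TAC-R arrays were below both normal arrays for 1 of these members and 16.3% of these rows. The comparisons share arrays pairwise, so their values for a gene are not independent.

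**Figure D3:**
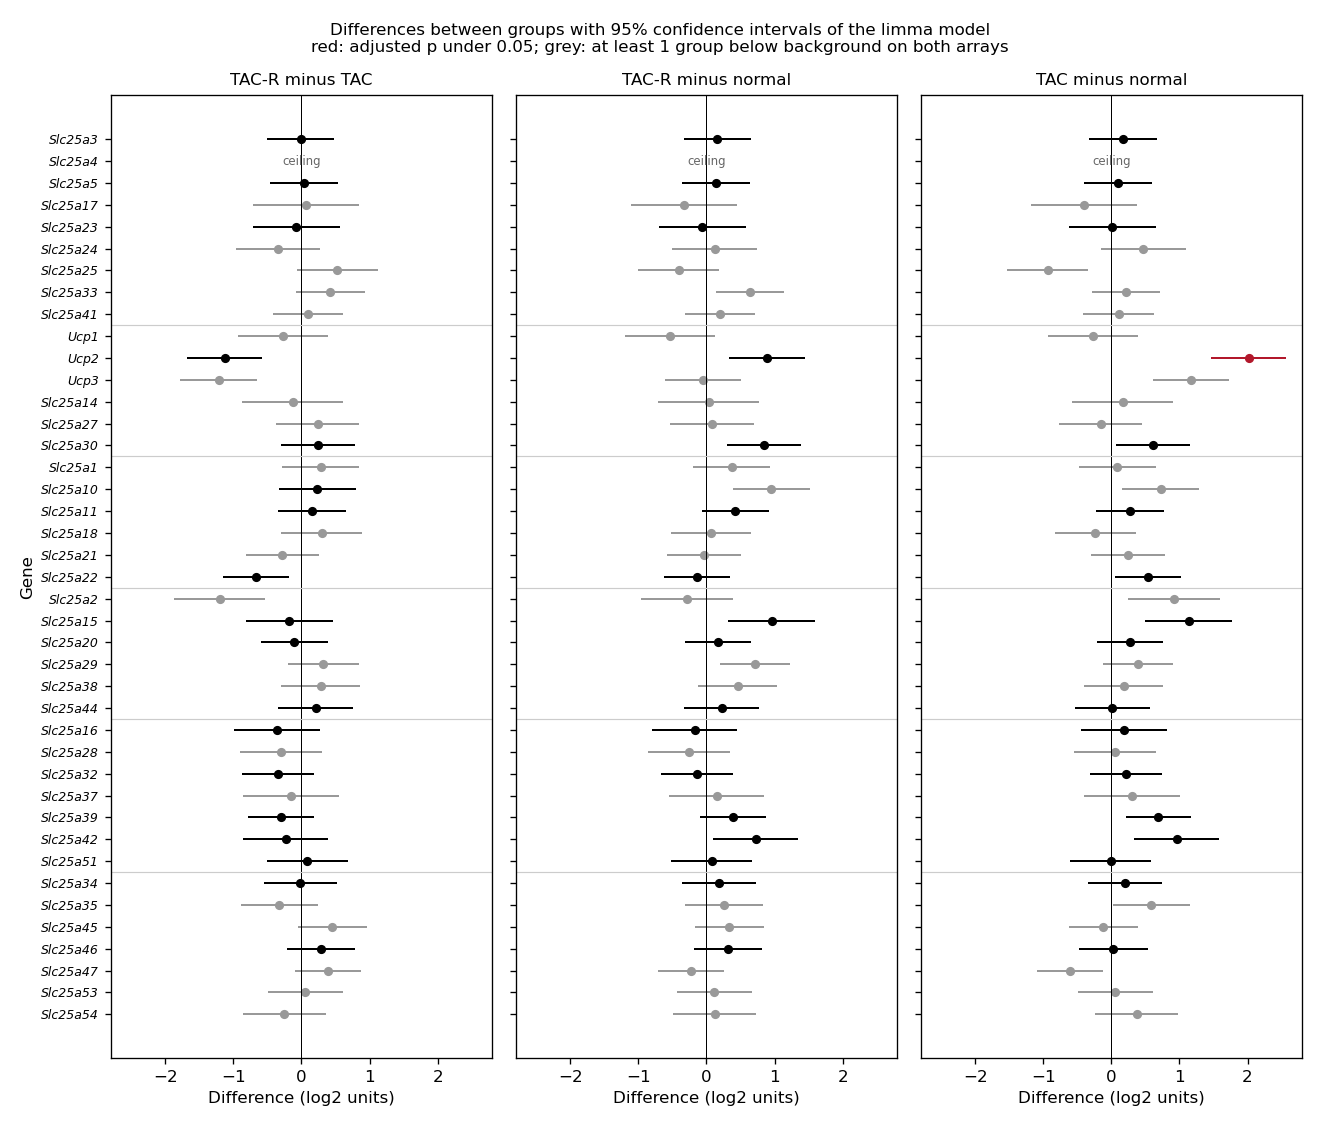
Differences between group means (points, log2 units) with 95% confidence intervals of the limma model for the 41 genes (rows, grouped by what they carry) in TAC-R minus TAC, TAC-R minus normal and TAC minus normal. Ucp2 in TAC minus normal, at 2.02, is drawn in red as the call, and grey marks genes for which at least 1 group was below background on both arrays.

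Genes around the carriers were read from lists of related function. Of 20 measured targets of PPAR-alpha, the fatty acid sensor of heart, 0 passed in any comparison. Between TAC and normal arrays 12 of them had both TAC arrays higher and 2 lower, against 21.9% and 21.3% of all rows and 32.2% and 17.6% of bright rows, with a median difference of 0.10. Between TAC-R and TAC arrays 3 were higher and 13 lower in that sense, with a median of -0.21. The shares were 20.1% and 20.4% of all rows and 24.3% and 24% of bright rows. Acot1 and Angptl4, counted among the 20, were below background on all 6 arrays. Acot2, a thioesterase of the matrix, averaged 15.07 ± 0.28 on the TAC and 13.79 ± 0.072 on the normal arrays (SD, n = 2 each, limma adjusted p = 0.101). Cpt1a, which makes acylcarnitines for import, averaged 10.41 ± 0.31 on the TAC-R and 11.39 ± 0.065 on the TAC arrays, and Acaa2, a thiolase, 13.42 ± 0.082 on the TAC-R and 14.38 ± 0.17 on the TAC arrays (limma adjusted p = 0.182 and 0.143).

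Genes of mitochondrial import and content gave no call. Of 14 genes for the import of carriers through the outer membrane and the intermembrane space and their insertion into the inner membrane, 0 passed in any comparison, and the median difference was 0.17 for TAC-R minus TAC, 0.21 for TAC-R minus normal and 0.015 for TAC minus normal. Tomm20, a receptor for imported proteins, averaged 10.64 ± 0.087 on the TAC-R and 9.93 ± 0.33 on the TAC arrays (limma adjusted p = 0.308). Of 16 genes of mitochondrial biogenesis and content 0 passed, with medians of 0.021, -0.0088 and 0.0071 in the same order of comparisons. Tfam, which packages mitochondrial DNA, averaged 9.37 ± 0.0008 on the TAC and 9.99 ± 0.021 on the normal arrays (limma adjusted p = 0.413). Of 21 genes of mitochondrial transport outside the 41 genes 0 passed, and Letm1, an ion exchanger of the inner membrane, had the largest measured difference between TAC and normal arrays at 0.64 ± 0.21 (limma adjusted p = 0.383).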

How the data were processed

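The 6 arrays were grouped by their titles. The log2 signals are the authors' deposited values, made by robust multi-array averaging in Expression Console at core-exon level, per the labels. Neither a version nor a genome build was found in those sources. This averaging makes array distributions alike and so hides a shift common to all transcripts. With no detection calls in the table, background was read from 1153 negative control rows. A group with both arrays below their own array's 95th percentile gives only a bound, taken from group means and without sampling error. The number of arrays limits the precision.

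After 1646 control rows were left out, 23188 rows were tested, 15049 of them named by the platform table. R 4.3.3 and limma 3.58.1 fitted 1 mean per group with empirical Bayes moderation (3 residual degrees of freedom), and calls needed a Benjamini-Hochberg adjusted p under 0.05 over all rows. The script was tested on simulated data. An exact permutation test of 2 arrays against 2 cannot go below p = 0.333. Values are given in full for members past the threshold, for up to 8 members per comparison with the smallest unadjusted p under 0.05, and for a fixed choice of well-known carriers. Members and lists were chosen with earlier results of these data known. The promoter motifs were chosen after their genes' values were seen.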

Additional observations from a re-analysis of the deposited data

How the results depend on the processing

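Ucp2 was called between TAC and normal under the 9 alternatives that changed the fit, the rows or the call rule (adjusted p = 7.22e-06 to 0.0391; averaging the rows of a gene could change nothing, since each member has 1 row) and without either TAC-R array, and lost its call without any of the 4 arrays compared, so the count of called members was 0 to 1 when single arrays were left out. In TAC-R against TAC the count rose to 2 with an intensity trend (Ucp2 and Ucp3) and to 1 without rows below the median of row means (Ucp3). It rose to 3 where calls needed a 2-fold change and p under 0.05 before adjustment (Ucp2, Ucp3 and Slc25a2). By that last rule it was 3 in TAC against normal (Ucp2, Ucp3 and Slc25a15), and in TAC-R against normal it was 1 with an intensity trend (Ucp2). Over all 23188 tested rows, deviations from the group mean were nearly uncorrelated between arrays with the same replicate number (correlations -0.013, 0.012 and -0.0093). Only 6207 of these rows had a mean above the background percentile, so this does not exclude a pairing of the arrays. With the replicate block, Ucp2 had a limma adjusted p = 0.0376 between TAC and normal. The rows called with it were 36, 47 and 11 in TAC against normal, TAC-R against TAC and TAC-R against normal.

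In that order, the rows called were 59, 100 and 21. They were 170, 344 and 156 with an intensity trend, 35, 37 and 12 with only the groups compared, 39, 44 and 10 with control rows kept, and 353, 456 and 331 by the 2-fold rule without adjustment. Without rows below the median of row means the last pair of comparisons gave 187 and 68. Without ceiling rows TAC-R against normal gave 37. Leaving out single arrays gave 0 to 35, 4 to 37 and 0 to 12.

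Of 1044 differences of named members under alternatives, 22 changed sign, all of genes that were not called. Slc25a28 in TAC against normal was -0.059 after renewed quantile normalization. The others changed when an array was left out, which uses fewer samples. In TAC against normal the ranges were -0.13 to 0.30 for Slc25a1, -0.012 to 0.21 for Slc25a5, -0.18 to 0.29 for Slc25a28 and -0.082 to 0.67 for Slc25a37. In TAC-R against TAC they were -0.62 to 0.085 for Ucp1, -0.053 to 0.027 for Slc25a3, -0.019 to 0.10 for Slc25a5, -0.40 to 0.048 for Slc25a15, -0.17 to 0.14 for Slc25a34, -0.40 to 0.11 for Slc25a37 and -0.59 to 0.13 for Slc25a42. In TAC-R against normal they were -0.32 to 0.22 for Ucp3, -0.72 to 0.14 for Slc25a2 and -0.23 to 0.53 for Slc25a37. Signals below background limit the sizes for 21 of the 41 genes on every array.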

Other observations

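Promoter windows were found for 37 of the 41 genes. The GC box GGGCGG, read on both strands, occurred in 24 of them (64.9%), against 41.8% of 21851 windows of protein-coding rat genes. The E-box CACGTG occurred in 3 (8.11%), against 7.02% of those windows, and the half-site AGGTCA in 7 (18.9%), against 14.2%. These shares describe the letters of the windows and were not set against the array values.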
